A study of Mus musculus with 6 samples.

Results

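The antioxidant, glutathione and metallothionein genes of the mouse paraventricular thalamus were taken by symbol, as the metallothioneins, superoxide dismutases, catalase, glutathione-synthesizing enzymes, glutathione peroxidases and transferases, peroxiredoxins, thioredoxins, glutaredoxins, haem oxygenases and the quinone reductase Nqo1. They were 77 of the 21959 genes of the table, and 66 of them had enough reads to be tested. Poly-A RNA was sequenced from bulk tissue of mice with a chronic constriction injury (CCI), a loose ligature on a nerve used to model lasting neuropathic pain, and from untreated mice. Both groups carry the WT genotype, no sham operation is named for the untreated mice, and the labels give no strain, age or sex. Each group has 3 libraries, CCI replicates 1 to 3 and control replicates 4 to 6. The design text gives 30 mice per group without saying how they were divided among the libraries, so a p-value measures only the library-to-library spread, part of which may be technical.

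Cells remove superoxide in steps. Superoxide dismutases turn it into hydrogen peroxide, and catalase, glutathione peroxidases and peroxiredoxins reduce the peroxide to water. The peroxidases are recharged by glutathione or thioredoxin, which draw on NADPH through glutathione reductase and thioredoxin reductases. Metallothioneins are small cysteine-rich proteins that bind zinc and copper and scavenge radicals. In the brain, astrocytes are the main store of glutathione and supply its precursors to neurons.

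Of the 66 tested genes, 5 were higher and 35 lower in CCI libraries by edgeR's quasi-likelihood test with a Benjamini-Hochberg adjusted p under 0.05, and 26 did not pass. Over all 14259 tested genes, 27.0% were called higher and 25.3% lower, the shares against which each group's count below is to be read. The members' median log2 fold change was −0.62, against 0.06 over all tested genes. The CCI libraries did not overlap the controls for 6 members that were higher and 37 that were lower in CCI, against 33.6% and 29.4% of all tested genes. The genes called higher were Mt2, Mt3, Gsta3, Gstt2 and Mgst2. Of the genes called lower, 13 were more than 2-fold lower: Glrx5, Gpx7, Gsr, Mgst3, Prdx3, Prdx4, Sod3, Txn2, Txndc5, Txndc9, Txndc15, Txnl4a and Txnrd1. In bulk tissue, fewer cells of a type and less RNA per cell cannot be told apart.

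**Figure D1:**
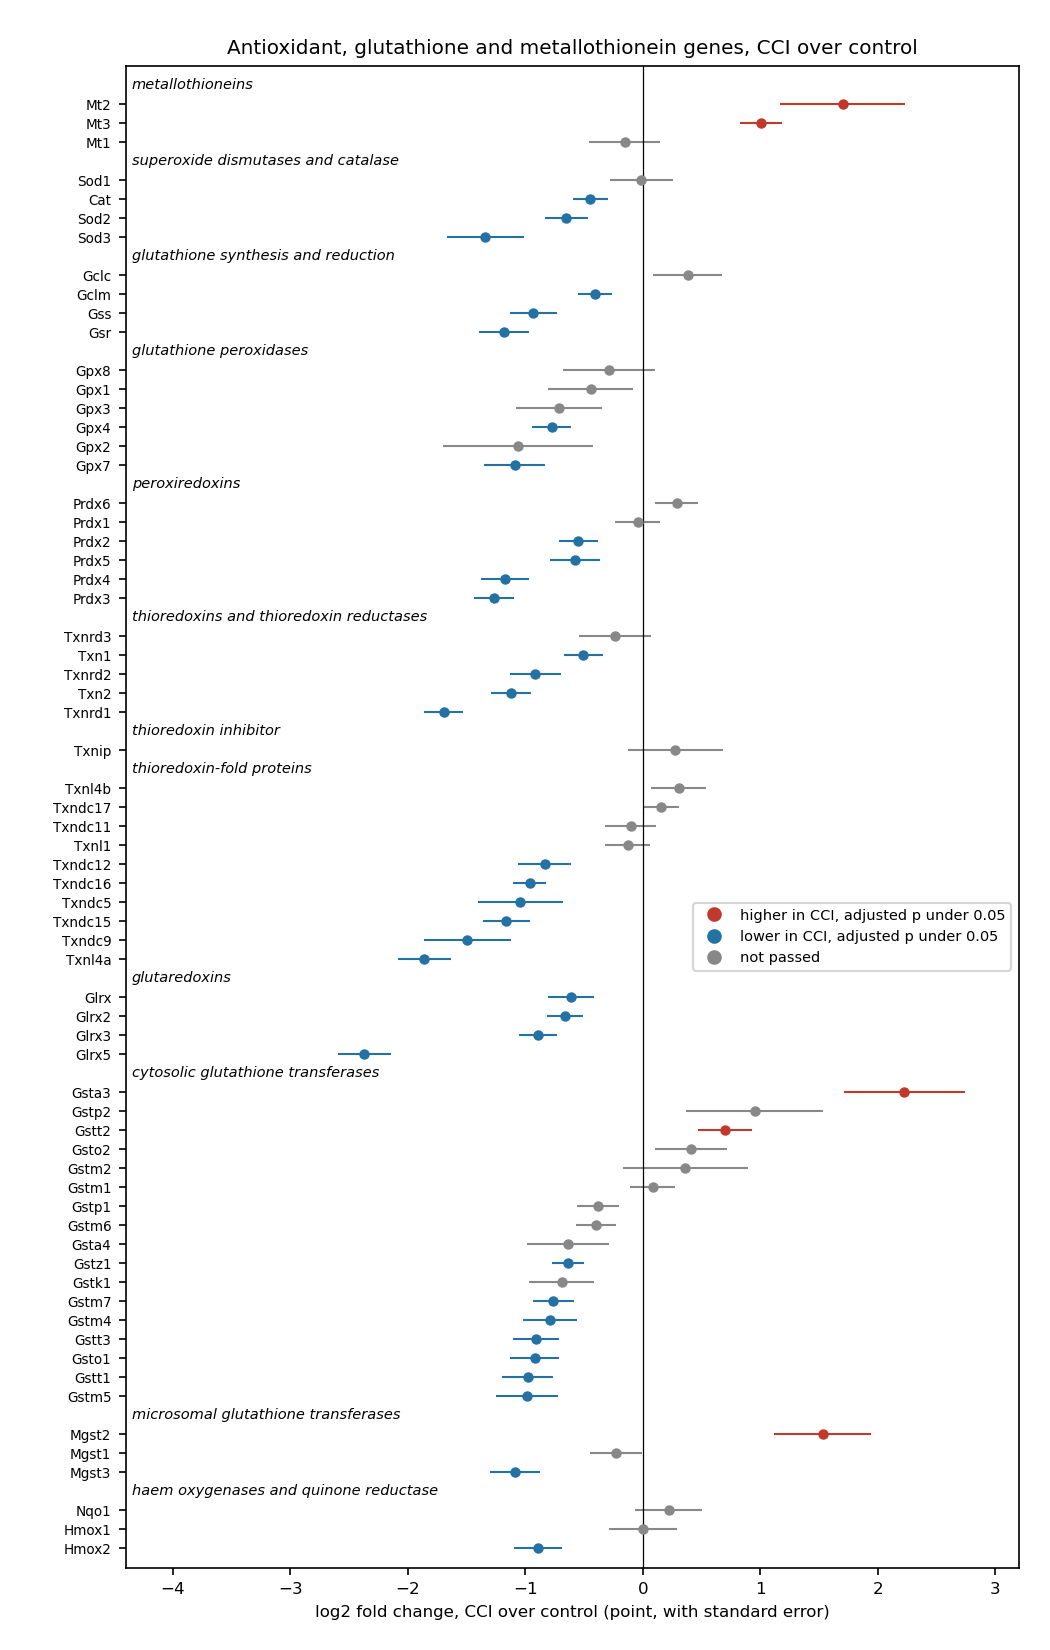
Log2 fold change of each of the 66 tested genes, CCI over control, with its standard error, grouped by role. Most points lie left of 0, the 5 red points mark the genes higher in CCI libraries, and all 4 glutaredoxins are blue.

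How many members were called, and in which direction, depended on the scaling between libraries. Raw totals were 7989139, 9056914 and 10529886 counts in CCI libraries, against 12454029, 12337448 and 15438268 in control libraries. TMM scaling factors were 1.25, 1.21 and 1.23 in CCI libraries and 0.90, 0.686 and 0.866 in control libraries. The members took 0.740%, 0.774% and 0.720% of all counts in CCI libraries and 0.712%, 0.683% and 0.703% in control libraries, so as a share of raw counts they were no lower in CCI. After TMM scaling their summed level was 5923, 6400 and 5843 CPM (read counts scaled to a common library size) in CCI libraries, against 7912, 9959 and 8114 CPM in control libraries. DESeq2's size factors in the same test gave 5 members higher and 36 lower, with a median of −0.68. Scaling by the total count alone, an alternative added after the data were seen, gave 15 members higher and 7 lower by edgeR, against 45.4% and 9.72% of all tested genes. The members' median was then 0.01 and that of all tested genes 0.65, with 17 of the 66 signs turned, and no gene passed in opposite directions under both scalings. The 7 genes lower under both were Glrx5, Prdx3, Prdx4, Txn2, Txndc9, Txnl4a and Txnrd1. On log2(FPKM + 1), which also scales by the total count, limma called 16 members higher and 6 lower, against 47.6% and 9.64% of all tested genes.

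Level and length moved with the result as well. The median log2 fold change of all tested genes was 0.78 in the decile with the lowest mean CPM and −0.92 in the decile with the highest, where 63.0% were called lower. That top decile held 18 members, of which 11 were called lower and 1 higher. The tested members had a median mean level of 50.2 CPM, against 23.0 over all tested genes. Their median length was 2481 bp, against 4531 bp over all tested genes. With the trends on length and mean expression removed, 15 members were called higher and 12 lower by edgeR, against 23.3% and 14.2% of all tested genes. The members' median was then 0.06. All 12 of those lower calls were also made without the correction, whereas 4 genes called lower before (Gpx4, Prdx2, Prdx5 and Txn1) were called higher. Of the 15 higher calls, only 2 (Gstt2 and Mt3) were also made without the correction. Gsta3, Mgst2 and Mt2 were no longer called higher. The part of level and length in the members' calls was not tested beyond this. In all 17 alternative settings tried, Mt3 was called higher and Glrx5, Txnrd1 and Txnl4a were called lower. No other member kept its call in every one.

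**Figure D2:**
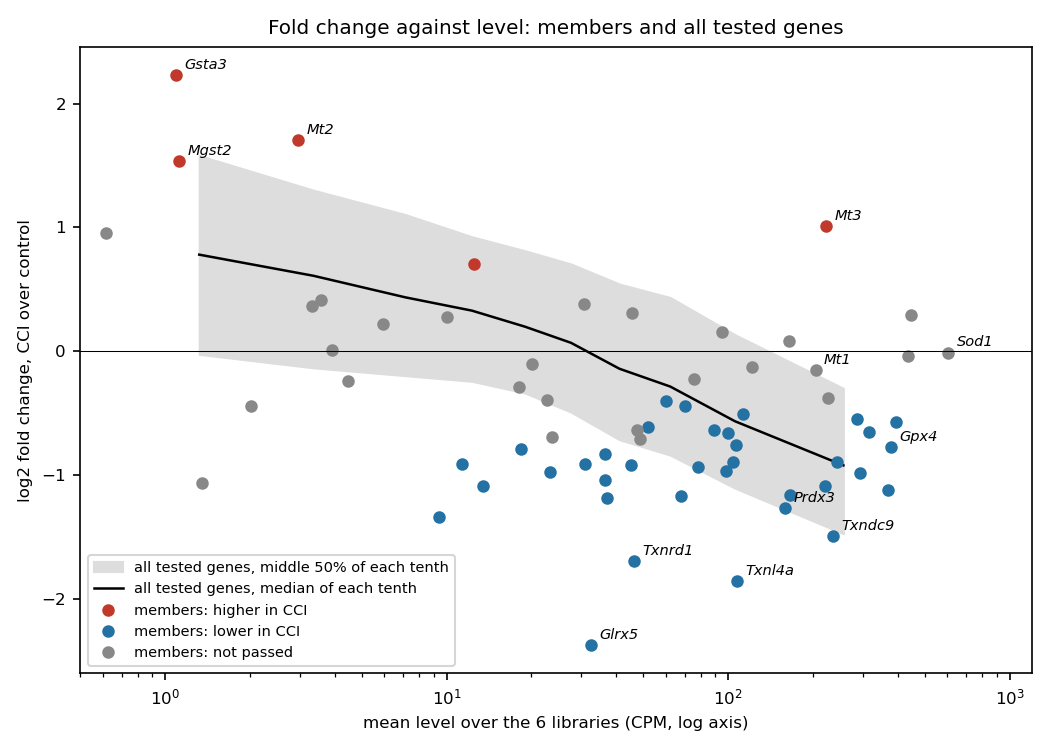
Log2 fold change (CCI over control) against mean level over the 6 libraries (CPM, log axis) for the 66 tested members, over the median and middle 50% of all tested genes in each decile of level. The median line falls with level, Mt3 lies above the grey band at high level, and Glrx5, Txnl4a and Txnrd1 lie below it.

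Of the 3 metallothioneins, 2 were called higher and none lower. Mt3, the form enriched in brain, stood at 266, 272 and 356 CPM in CCI libraries, against 143, 156 and 146 CPM in control libraries. Every CCI library was above every control library. The log2 fold change was 1.01 ± 0.18 (SE), with an edgeR adjusted p of 0.0022, and it was 1.59 on log2(FPKM + 1) and 2.2 with both trends removed. Per length, Mt3 had the highest mean FPKM of the members in CCI libraries, at 344 ± 58.8 FPKM, against 113 ± 11 FPKM in control libraries (SD, n = 3 each). Mt1, the widely inducible form, had 160, 162 and 259 CPM in CCI libraries and 170, 314 and 162 CPM in control libraries. The groups overlapped, with 1 high library in each, and the log2 fold change was −0.15 ± 0.30 (edgeR adjusted p = 0.691). With both trends removed Mt1 was called higher, at 1.15 (adjusted p = 0.00817). Mt2, the other inducible form, was scarce, with 162 counts in all over CCI libraries and 45 over control libraries. Its level was 3.21, 2.19 and 8.17 CPM in CCI libraries, against 1.25, 1.89 and 1.12 CPM in control libraries. The groups did not overlap, but CCI replicate 3 stood well above the rest. Mt2 rose by 1.70 ± 0.53 on the log2 scale (edgeR adjusted p = 0.0254). Without CCI replicate 3 the change was 0.94 and did not pass (adjusted p = 0.107), and it did not pass without control replicate 4 (0.0697) or control replicate 6 (0.0768) either.

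The 3 genes lie close together on the plus strand of chromosome 8, on GRCm39 at chr8:94879235-94880774 for Mt3, chr8:94899292-94900196 for Mt2 and chr8:94905710-94906955 for Mt1. The 250 bases before each RefSeq start are shown, on GRCm38.p6 (chr8:94178839-94179088 for Mt1, chr8:94172368-94172617 for Mt2 and chr8:94152357-94152606 for Mt3, all plus strand). These starts were not matched to those of the deposited genes. Whether the letters play a part in the genes' values was not tested. Capitals mark matches to the metal response element core, searched as TGCACNC and TGCGCNC, and to the antioxidant response element core, searched as TGACNNNGC, on both strands.
Mt1: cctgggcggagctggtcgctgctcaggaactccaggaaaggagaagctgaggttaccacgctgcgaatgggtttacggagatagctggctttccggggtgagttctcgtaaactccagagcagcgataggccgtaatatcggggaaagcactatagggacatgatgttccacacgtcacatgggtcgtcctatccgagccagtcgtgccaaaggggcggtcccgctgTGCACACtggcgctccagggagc
Mt2: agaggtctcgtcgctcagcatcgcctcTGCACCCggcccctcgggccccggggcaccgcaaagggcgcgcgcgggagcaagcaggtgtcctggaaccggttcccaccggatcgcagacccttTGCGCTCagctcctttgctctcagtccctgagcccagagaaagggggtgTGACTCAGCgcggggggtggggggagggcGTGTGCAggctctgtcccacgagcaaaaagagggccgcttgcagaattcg
Mt3: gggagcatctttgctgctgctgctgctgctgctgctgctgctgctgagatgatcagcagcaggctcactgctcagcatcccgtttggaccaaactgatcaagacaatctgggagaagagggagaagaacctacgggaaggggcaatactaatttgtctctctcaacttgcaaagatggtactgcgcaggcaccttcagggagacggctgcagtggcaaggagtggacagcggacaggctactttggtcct
The Mt1 window held TGCACAC 23 to 17 bases before the start. The Mt2 window held TGCACCC at 223 to 217 bases, TGCGCTC at 128 to 122, TGACTCAGC at 79 to 71 and GTGTGCA, a match on the minus strand, at 50 to 44. None of these letters occurred in the Mt3 window. Bases after the annotated start, or before any other start of a gene, were not searched. The matches are therefore not a full count for any of the 3 genes, and their numbers cannot be compared between genes. Such matches are common: TGCACNC occurred in 10.4%, TGCGCNC in 12.5% and TGACNNNGC in 10.2% of 32851 promoter windows of this length. In the 90 windows of the 66 members found in that table, the shares were 10%, 14.4% and 13.3%.

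Among the superoxide dismutases and catalase, 3 of 4 were called lower and none higher. Their median log2 fold change was −0.55, and it was 0.05 on log2(FPKM + 1) and 0.13 with both trends removed. Sod1, the cytosolic copper-zinc dismutase, had 647, 702 and 460 CPM in CCI libraries and 487, 807 and 528 CPM in control libraries, with overlapping groups and a log2 fold change of −0.01 ± 0.27 (edgeR adjusted p = 0.976). With total-count scaling Sod1 was called higher, at 0.62 (adjusted p = 0.0346), and so it was with both trends removed (1.36, adjusted p = 0.00157). Sod2, the mitochondrial manganese enzyme, had 251, 265 and 225 CPM in CCI libraries, against 361, 454 and 346 CPM in control libraries. The groups were apart, and Sod2 fell by 0.65 ± 0.19 on the log2 scale (edgeR adjusted p = 0.0178). Sod3, the secreted form, had 4.31, 6.57 and 5.16 CPM in CCI libraries, against 18.2, 8.16 and 14.1 CPM in control libraries. It fell by 1.34 ± 0.32 (edgeR adjusted p = 0.00872), with no overlap despite the wide control spread. Catalase (Cat), the peroxisomal enzyme, had 54.3, 56.9 and 67.4 CPM in CCI libraries and 85.9, 80.3 and 77.1 CPM in control libraries, a drop of small size (−0.45 ± 0.15, edgeR adjusted p = 0.0353). The Sod2 call was lost without CCI replicate 1 (adjusted p = 0.072) or 3 (0.0656). For Cat, dropping CCI replicate 1 (Cat adjusted p = 0.15), CCI replicate 2 (0.119), control replicate 4 (0.0708) or control replicate 6 (0.0679) each ended the call.

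Glutathione synthesis and reduction had 3 of 4 genes called lower and none higher, with a median of −0.67 (−0.06 on log2(FPKM + 1) and −0.28 with both trends removed). Gclc, the catalytic subunit of glutamate-cysteine ligase, had 34.9, 35.0 and 34.5 CPM in CCI libraries, against 19.2, 41.7 and 19.5 CPM in control libraries. The CCI libraries were close together and control replicate 5 lay above them, so the difference of 0.38 ± 0.30 did not pass (edgeR adjusted p = 0.301). Without control replicate 5 it was 0.82 (adjusted p = 0.00038), and with total-count scaling it was 1.03 (adjusted p = 0.00687). Gclm, the modifier subunit, had 50.8, 51.2 and 53.4 CPM in CCI libraries and 65.9, 63.4 and 76.4 CPM in control libraries, and fell by 0.40 ± 0.15 (edgeR adjusted p = 0.0432). That call was lost without any 1 of CCI replicates 1 to 3 (0.143, 0.124 and 0.0836) or of control replicates 4 (0.0558) and 6 (0.162). Glutathione synthetase (Gss) had 54.0, 63.0 and 44.4 CPM in CCI libraries, against 100.5, 84.7 and 122 CPM in control libraries, a log2 fold change of −0.93 ± 0.20 (edgeR adjusted p = 0.00468). Glutathione reductase (Gsr), which returns oxidized glutathione to its reduced form, had 21.8, 24.4 and 22.1 CPM in CCI libraries and 60.0, 36.6 and 58.3 CPM in control libraries. Gsr fell by 1.18 ± 0.21 (edgeR adjusted p = 0.00219), and Gss and Gsr both stayed lower when any single library was left out. Gss overlaps Acss2 on the opposite strand. No strand setting is stated, so how reads from the overlapping stretch were counted is not known. The overlap is of whole gene spans, and shared exon sequence was not measured.

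Of 6 tested glutathione peroxidases, 2 were called lower, near the 25.3% of all tested genes, and none higher, with a median of −0.74 (−0.11 on log2(FPKM + 1) and −0.36 with both trends removed). Gpx4, the selenoenzyme that reduces lipid hydroperoxides, had 259, 292 and 284 CPM in CCI libraries, against 475, 457 and 499 CPM in control libraries. Its fall of 0.78 ± 0.17 on the log2 scale (edgeR adjusted p = 0.00541) held without each library in turn, but the log2 fold change was 0.64 with both trends removed. Gpx4 shares 55.3% of its transcript windows of 75 bases with other genes, mainly a pseudogene copy, so its count is uncertain. Gpx7, an enzyme of the endoplasmic reticulum, had 9.72, 8.85 and 7.24 CPM in CCI libraries, against 14.8, 24.9 and 15.3 CPM in control libraries, and fell by 1.09 ± 0.26 (edgeR adjusted p = 0.00821). Gpx8, its relative in the same compartment, had 15.4, 18.3 and 15.0 CPM in CCI libraries and 16.6, 33.7 and 9.65 CPM in control libraries, and Gpx3, the secreted form, had 40.7, 47.4 and 22.3 CPM in CCI libraries and 73.3, 31.7 and 75.1 CPM in control libraries. Neither passed, at −0.29 ± 0.39 for Gpx8 and −0.71 ± 0.37 for Gpx3 (edgeR adjusted p = 0.561 and 0.131). Gpx1, the cytosolic form, stayed between 1.1 and 2.59 CPM in every library and did not pass either (−0.44 ± 0.37, edgeR adjusted p = 0.33). Gpx6 was too low for the filter, with 4, 0 and 0 counts in CCI libraries and 13, 19 and 12 in control libraries.

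Most peroxiredoxins reduce peroxide with electrons from thioredoxin. Of 6 tested peroxiredoxins, 4 were called lower and none higher. Their median was −0.56, and it was 0.04 on log2(FPKM + 1) and 0.81 with both trends removed. Prdx3, the mitochondrial form, had 95.1, 98.2 and 87.8 CPM in CCI libraries, against 209.9, 263 and 204 CPM in control libraries. It fell by 1.27 ± 0.17 (edgeR adjusted p = 0.000602) and also passed on log2(FPKM + 1). Prdx4, in the endoplasmic reticulum, had 37.5, 50.8 and 37.4 CPM in CCI libraries and 75.8, 113 and 94.1 CPM in control libraries, and fell by 1.17 ± 0.20 (edgeR adjusted p = 0.00191). Both were lower in every CCI library than in any control library. Prdx2, a cytosolic form abundant in neurons, had 231, 254 and 215 CPM in CCI libraries, against 348, 342 and 332 CPM in control libraries (−0.55 ± 0.16, edgeR adjusted p = 0.0214). Prdx5, found in mitochondria, peroxisomes and cytosol, had 324, 359 and 267 CPM in CCI libraries, against 399.8, 568 and 448 CPM in control libraries (−0.57 ± 0.21, edgeR adjusted p = 0.0471). Both calls were lost without CCI replicate 1 (adjusted p = 0.0966 for Prdx2 and 0.128 for Prdx5), CCI replicate 3 (0.0715 and 0.149) or control replicate 6 (0.059 and 0.0883), and that of Prdx5 also without CCI replicate 2 (0.0706). Prdx1, the other main cytosolic form, had 418, 447 and 419 CPM in CCI libraries and 403, 523 and 398 CPM in control libraries, with overlapping groups (−0.04 ± 0.19, edgeR adjusted p = 0.864). With total-count scaling Prdx1 was called higher, at 0.57 (adjusted p = 0.0114). Prdx6, which acts on phospholipid hydroperoxides and is strong in astrocytes, had 447, 483 and 540 CPM in CCI libraries and 441, 379 and 383 CPM in control libraries. All CCI libraries lay above the control libraries for Prdx6, yet the difference of 0.29 ± 0.18 did not pass (edgeR adjusted p = 0.21). It did with total-count scaling (0.87, adjusted p = 0.00681) and with both trends removed (1.42, adjusted p = 0.00142).

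**Figure D3:**
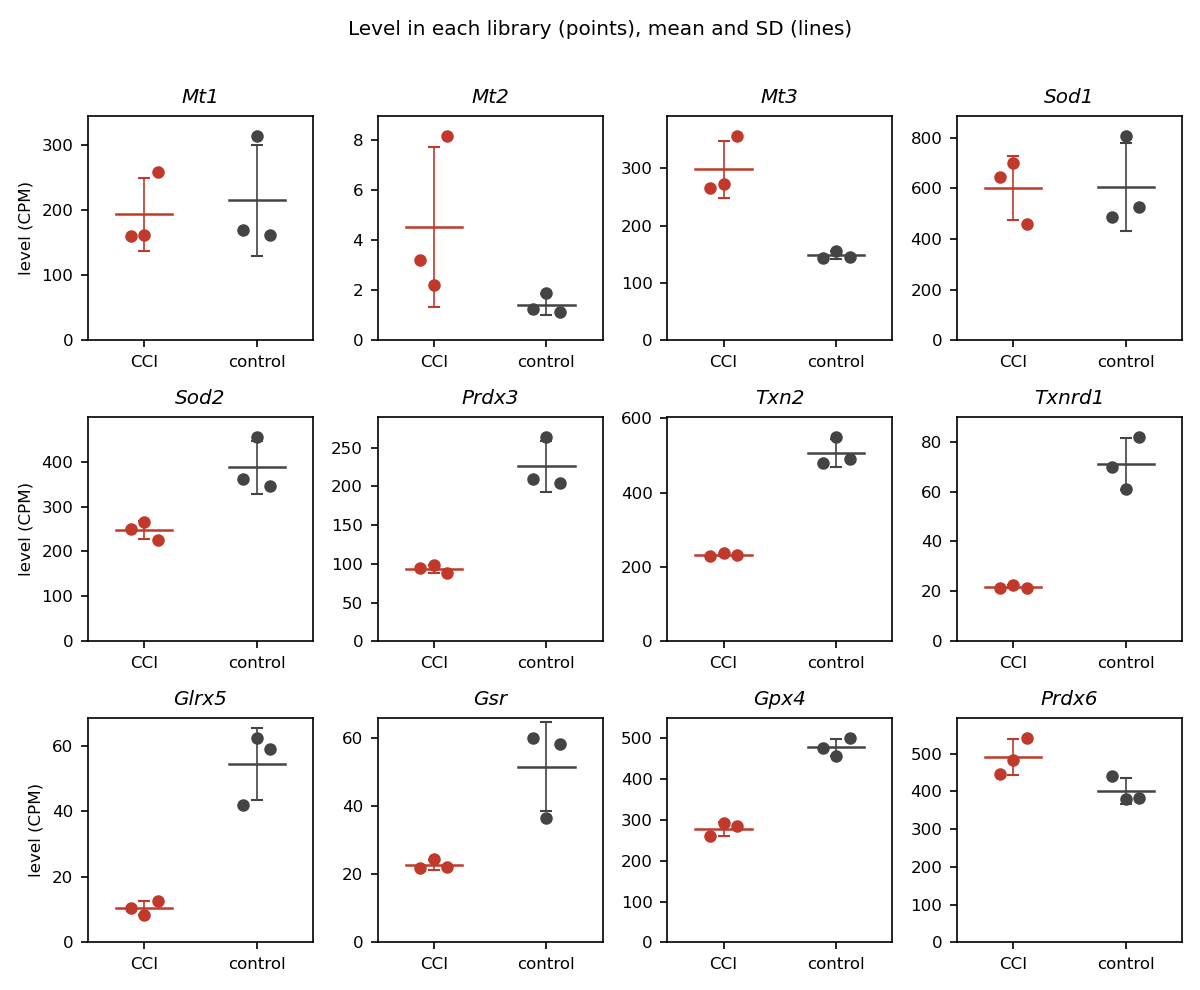
Level (CPM) of 12 members in each library, CCI left of control, with the group mean and SD. Mt3 is higher in every CCI library, Glrx5, Txnrd1, Txn2 and Prdx3 are lower in every CCI library, and Mt1 and Sod1 overlap.

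Thioredoxins and their reductases were called lower in 4 of 5 cases and higher in none, with a median of −0.91 (−0.25 on log2(FPKM + 1) and −0.35 with both trends removed). Txnrd1, the cytosolic reductase, had 21.4, 22.7 and 21.5 CPM in CCI libraries, against 69.8, 61.1 and 81.8 CPM in control libraries. The CCI libraries lay within 2 CPM of each other and far below the controls, a log2 fold change of −1.70 ± 0.16 (edgeR adjusted p = 0.000215), and the change lay between −1.97 and −0.92 over the 17 alternatives. Txnrd1 overlaps Eid3 on the same strand, which had 48 counts over all libraries. Txnrd2, the mitochondrial reductase, had 20.2, 22.2 and 21.9 CPM in CCI libraries and 41.8, 28.6 and 50.6 CPM in control libraries, and fell by 0.91 ± 0.22 (edgeR adjusted p = 0.00845). Txn2, the mitochondrial thioredoxin, had 229.8, 237 and 231 CPM in CCI libraries, against 480.2, 549 and 489 CPM in control libraries. This was a tight separation, −1.12 ± 0.17 (edgeR adjusted p = 0.001), although with both trends removed the value was 0.06. Txn1, the cytosolic thioredoxin, had 95.3, 101 and 83.3 CPM in CCI libraries and 116, 150.2 and 130.4 CPM in control libraries, and fell by 0.51 ± 0.17 (edgeR adjusted p = 0.0307). Dropping any 1 CCI library (0.0932, 0.0591 and 0.102 without replicates 1, 2 and 3) or control replicate 6 (0.0717) ended the Txn1 call. Txnip, which binds and inhibits thioredoxin, had 10.3, 8.76 and 13.6 CPM in CCI libraries and 6.78, 15.6 and 5.01 CPM in control libraries. Control replicate 5 was above all others there, and the difference of 0.28 ± 0.41 did not pass (edgeR adjusted p = 0.589); without that library it was 0.88 (adjusted p = 0.0136).

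All 4 glutaredoxins, small proteins that use glutathione to reduce disulphides or to carry iron-sulphur clusters, were called lower, with a median of −0.78 (−0.17 on log2(FPKM + 1) and −0.34 with both trends removed). Glrx5, which hands on iron-sulphur clusters in mitochondria, had the lowest log2 fold change of the tested members. It stood at 10.4, 8.49 and 12.6 CPM in CCI libraries, against 41.9, 62.3 and 59.2 CPM in control libraries. It fell by 2.37 ± 0.23 (edgeR adjusted p = 0.000212), a 5.17-fold lower level, and the change lay between −2.57 and −1.52 over the 17 alternatives. Glrx3, a cytosolic iron-sulphur carrier, had 171, 184 and 155 CPM in CCI libraries, against 302, 332 and 312 CPM in control libraries (−0.89 ± 0.16, edgeR adjusted p = 0.00241). Glrx2, a mainly mitochondrial form, had 77.4, 73.3 and 80.8 CPM in CCI libraries, against 112, 139 and 116 CPM in control libraries (−0.66 ± 0.15, edgeR adjusted p = 0.00714). Glrx, the classical cytosolic form, had 42.7, 48.1 and 32.4 CPM in CCI libraries and 55.2, 74.7 and 58.4 CPM in control libraries (−0.61 ± 0.20, edgeR adjusted p = 0.0296). In TMM-scaled CPM, no CCI library reached a control library for any of the 4 genes. With total-count scaling Glrx5 was still called lower (−1.76), but Glrx3 (−0.29), Glrx2 (−0.055) and Glrx (−7.04e-06) did not pass. The Glrx call was lost without CCI replicate 1 (adjusted p = 0.0766) or 3 (0.0994).

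Among 10 tested proteins with a thioredoxin fold, 6 were called lower and none higher, with a median of −0.90 (−0.23 on log2(FPKM + 1) and −0.39 with both trends removed). Txnl4a, a component of the spliceosome rather than a redox enzyme, had 40.9, 46.6 and 51.7 CPM in CCI libraries, against 130.4, 224 and 151 CPM in control libraries. It fell by 1.86 ± 0.23 (edgeR adjusted p = 0.000426), but it overlaps Naa12 on the same strand, so its count is uncertain. Txndc15 had 96.3, 117 and 95.2 CPM in CCI libraries and 254, 177 and 258 CPM in control libraries (−1.16 ± 0.20, edgeR adjusted p = 0.00182). Txndc16 had 62.3, 65.5 and 71.1 CPM in CCI libraries and 134, 126 and 128 CPM in control libraries (−0.96 ± 0.14, edgeR adjusted p = 0.000935). None of the 3 overlapped between groups. Txndc9, named here because 1 library sets its size, had 122, 135 and 114 CPM in CCI libraries, against 216, 592 and 239 CPM in control libraries, where replicate 5 stood far above the rest. The log2 fold change of −1.49 shrank to −0.90 when that library was dropped. The Txndc9 call held without each library in turn, that one included. Control replicate 5 was the highest control for 40 of the 66 members, and for 43.1% of all tested genes.

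Glutathione transferases, which join glutathione to reactive compounds, were mixed. Of the 17 cytosolic forms tested, 2 were called higher and 7 lower, with a median of −0.64 that was 0.08 on log2(FPKM + 1) and 0.14 with both trends removed. Gstm5 had 191, 208 and 193 CPM in CCI libraries, against 285, 560.4 and 324 CPM in control libraries (−0.98 ± 0.26, edgeR adjusted p = 0.0135). Its call was lost without CCI replicate 1 (adjusted p = 0.0544) or 3 (0.0517), and its size was −0.65 without control replicate 5. Gstm1, a form strong in astrocytes, had 164, 179 and 165 CPM in CCI libraries and 152, 198 and 128 CPM in control libraries, with overlapping groups (0.09 ± 0.19, edgeR adjusted p = 0.726). Gstm1 was called higher with total-count scaling (0.70, adjusted p = 0.00539), with the length trend removed (0.44, adjusted p = 0.0403) and with both trends removed (1.31, adjusted p = 0.000786). Gstp1 had 189.8, 206 and 194 CPM in CCI libraries and 225, 308 and 234 CPM in control libraries. It was lower in every CCI library without passing (−0.38 ± 0.18, edgeR adjusted p = 0.107), and it shares 57.7% of its transcript windows with close copies. Gstz1, Gstt1 and Gstt3 also fell. Gstz1, an isomerase of tyrosine breakdown, had 67.3, 71.7 and 70.4 CPM in CCI libraries and 108, 112 and 106 CPM in control libraries (−0.64 ± 0.14, edgeR adjusted p = 0.00496). Gstt1 had 14.7, 18.1 and 14.3 CPM in CCI libraries and 28.1, 39.4 and 25.5 CPM in control libraries (−0.98 ± 0.22, edgeR adjusted p = 0.0056), and Gstt3 had 6.91, 8.85 and 7.86 CPM in CCI libraries and 14.9, 14.5 and 15.0 CPM in control libraries (−0.91 ± 0.20, edgeR adjusted p = 0.00529).

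Gsta3 and Gstt2 are named here because they were the only cytosolic forms called higher. Gsta3 had 2.40, 1.83 and 1.16 CPM in CCI libraries, against 0.357, 0.591 and 0.224 CPM in control libraries (2.23 ± 0.51, edgeR adjusted p = 0.00695), from under 100 counts over all libraries. Gstt2 had 15.5, 16.6 and 14.3 CPM in CCI libraries and 10.8, 10.8 and 7.03 CPM in control libraries (0.70 ± 0.23, edgeR adjusted p = 0.0301), and dropping any 1 CCI library (0.0888, 0.0998 and 0.055 without replicates 1, 2 and 3) or control replicate 6 (0.103) ended its call. Of the membrane-bound microsomal forms, Mgst2 rose, at 1.70, 2.1 and 1.23 CPM in CCI libraries, against 0.535, 0.473 and 0.673 CPM in control libraries (1.53 ± 0.41, edgeR adjusted p = 0.0141), again from under 100 counts and not without CCI replicate 2 (0.0599). Mgst3 fell, at 146, 169 and 108 CPM in CCI libraries, against 259, 338 and 305 CPM in control libraries (−1.09 ± 0.21, edgeR adjusted p = 0.00318). Mgst1 had 75.9, 72.8 and 59.3 CPM in CCI libraries and 71.0, 109 and 64.1 CPM in control libraries, and did not pass (−0.23 ± 0.22, edgeR adjusted p = 0.409).

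Of the haem oxygenases and the quinone reductase, 1 of 3 was called lower and none higher. Hmox1, the inducible haem oxygenase, had 4.21, 4.47 and 3.08 CPM in CCI libraries and 4.55, 3.19 and 3.89 CPM in control libraries (0.01 ± 0.29, edgeR adjusted p = 0.988). Nqo1, the quinone reductase, had 6.11, 7.39 and 5.62 CPM in CCI libraries and 5.98, 6.74 and 3.82 CPM in control libraries (0.22 ± 0.28, edgeR adjusted p = 0.537), but was called higher with total-count scaling (0.82, adjusted p = 0.034). Both genes were low and overlapped between groups. Hmox2, the constitutive form, had 71.5, 77.8 and 69.2 CPM in CCI libraries, against 112, 178 and 115 CPM in control libraries, and fell by 0.89 ± 0.21 (edgeR adjusted p = 0.00724). Hmox2 overlaps Cdip1 on the opposite strand.

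The groups by compartment were picked after the values were seen and do not hold every member of a compartment. Among the members in none of them are Gpx1, Gclc, Nqo1, Txndc17 and Txnl1, which did not pass. Gpx4, Gclm, Gss and Gsr, which were called lower, and all glutathione transferases, which were mixed, are also in none of them. All 7 members taken as mitochondrial (Glrx2, Glrx5, Prdx3, Prdx5, Sod2, Txn2 and Txnrd2) were called lower, with a median log2 fold change of −0.91. Prdx5 is also found elsewhere in the cell. Of 8 taken as cytosolic (Glrx, Glrx3, Prdx1, Prdx2, Prdx6, Sod1, Txn1 and Txnrd1), 5 were lower, with a median of −0.53. Of 6 taken as endoplasmic reticulum (Gpx7, Gpx8, Prdx4, Txndc5, Txndc11 and Txndc12), 4 were lower, with a median of −0.94. These groups get no test. On log2(FPKM + 1) the medians were −0.25 (mitochondrial), 0.07 (cytosolic) and −0.23 (endoplasmic reticulum), and with both trends removed −0.20, 0.63 and −0.41. In all, 19 members overlap another gene, and of the 35 members called lower, 20 neither overlap another gene nor share more than 10% of their transcript windows with one.

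**Figure D4:**
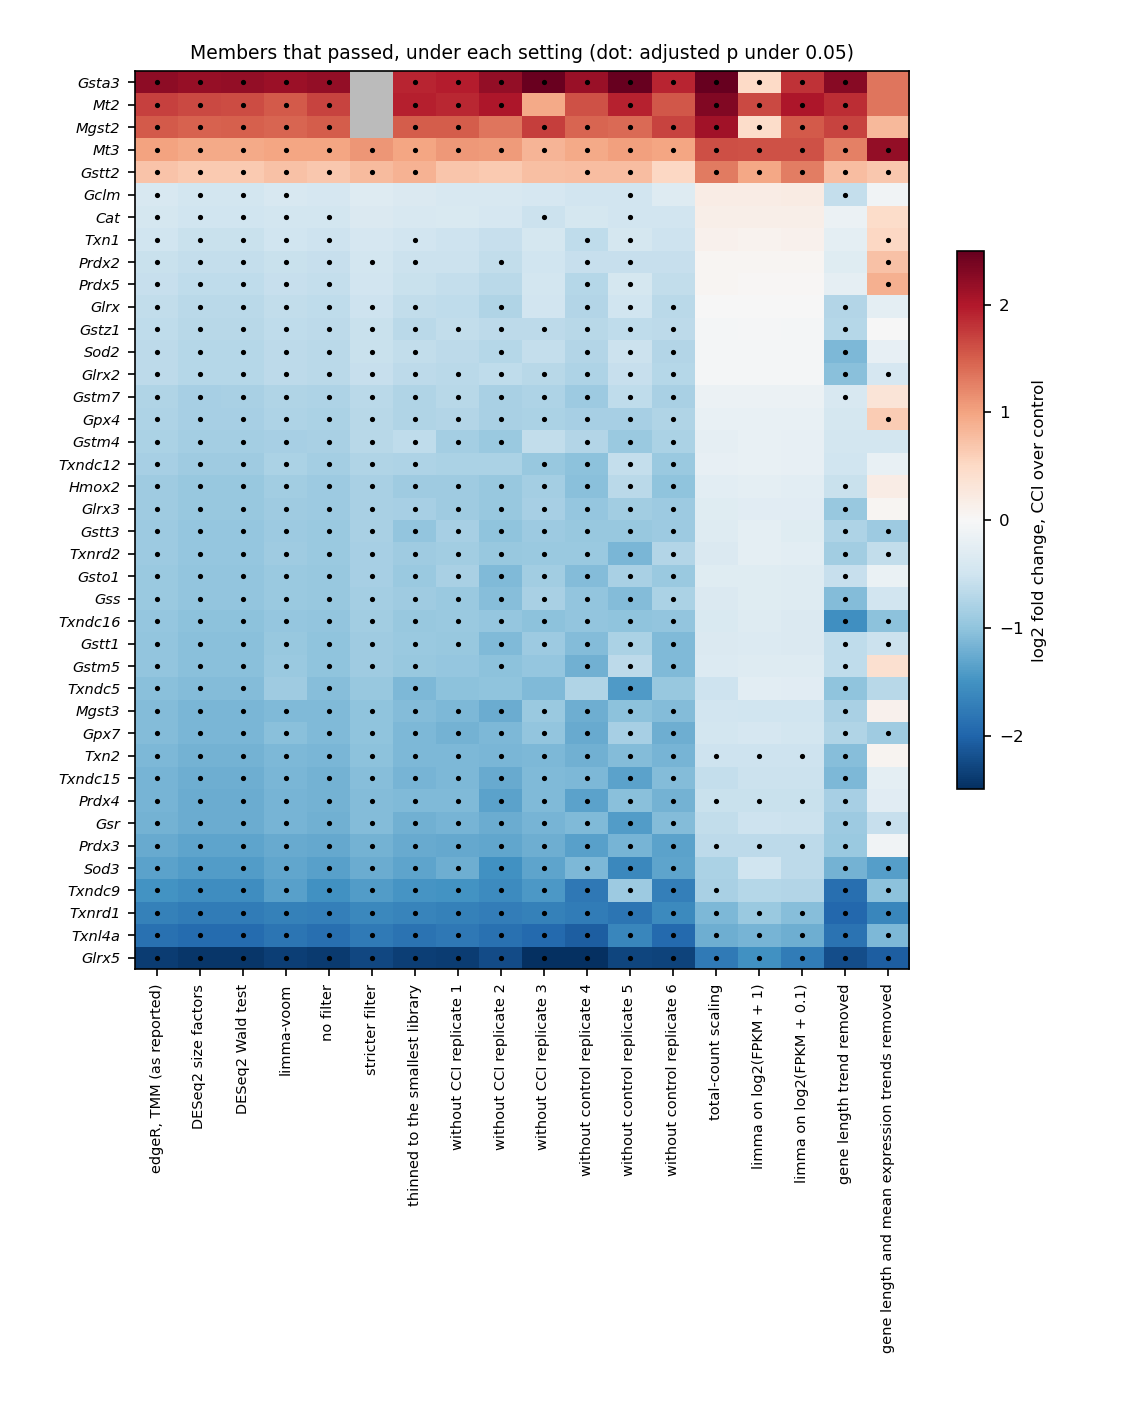
Log2 fold change (colour, CCI over control) of the 40 members that passed, under the reported test and 17 alternatives, with a dot where the adjusted p is under 0.05 and grey where a gene was not tested. The TMM and DESeq2 columns look alike, the total-count and FPKM columns and the column without length and expression trends are paler for the genes called lower, and Mt3, Glrx5, Txnrd1 and Txnl4a have a dot throughout.

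Genes that regulate or feed these enzymes were counted from lists of pathway genes, to be read against the 27.0% of all tested genes called higher and the 25.3% called lower. Of 12 tested regulators around NRF2, the factor that drives many antioxidant genes, 5 were higher and 3 lower. Nfe2l2, which encodes NRF2, had 28.4, 33.3 and 32.3 CPM in CCI libraries and 27.8, 24.9 and 20.05 CPM in control libraries and did not pass (0.37 ± 0.18, edgeR adjusted p = 0.116). Its inhibitor Keap1 did not pass either (0.07 ± 0.14, edgeR adjusted p = 0.707). With total-count scaling both were called higher, at 0.96 for Nfe2l2 and 0.65 for Keap1 (adjusted p = 0.00539 and 0.0202). With both trends removed they were also called higher, at 0.74 and 0.43 (adjusted p = 0.0153 and 0.0417). Nfe2l1, a related factor, rose by 1.0 ± 0.16 and the ubiquitin ligase gene Btrc fell by 1.19 ± 0.18 (edgeR adjusted p = 0.00146 and 0.000902). Of 32 tested NADPH and redox partners, 6 were higher and 15 lower. G6pdx, the first NADPH-making enzyme of the pentose phosphate pathway, had 22.6, 24.2 and 23.8 CPM in CCI libraries, against 71.5, 62.1 and 66.4 CPM in control libraries (−1.50 ± 0.15, edgeR adjusted p = 0.000219), and Sesn1, a sestrin, fell by 1.57 ± 0.17 (edgeR adjusted p = 0.000263). Slc7a11, which imports cystine for glutathione synthesis, had 87.1, 76.4 and 82.8 CPM in CCI libraries, against 39.1, 45.9 and 35.5 CPM in control libraries (1.03 ± 0.16, edgeR adjusted p = 0.00104).

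Of 13 tested genes for glutathione breakdown and export, 4 were higher and 2 lower, and the exporters Abcc1 (2.0 ± 0.21) and Abcc4 (1.4 ± 0.23) rose (edgeR adjusted p = 0.000239 and 0.00152). The 19 genes for selenoprotein synthesis and other selenoproteins were higher in 3 and lower in 12 cases, with Selenoo at −1.53 ± 0.25 and Lrp8, a receptor that takes up selenoprotein P, at 1.53 ± 0.15 (edgeR adjusted p = 0.00148 and 0.000224). Zinc and copper handling was higher in 1 and lower in 9 of 20 tested genes. The zinc transporters Slc30a6 (−1.53 ± 0.16) and Slc30a9 (−1.45 ± 0.19) fell (edgeR adjusted p = 0.000246 and 0.000545). Mtf1, the metal-sensing factor of the metallothionein genes, did not pass (0.23 ± 0.18, edgeR adjusted p = 0.313). With total-count scaling it was called higher (0.83, edgeR adjusted p = 0.00762), but with both trends removed its sign turned and it did not pass (−0.28, edgeR adjusted p = 0.238). Of 9 tested sources of superoxide and peroxide, 2 were higher and 2 lower, with falls in the monoamine oxidases Maoa (−1.52 ± 0.19) and Maob (−1.87 ± 0.26, edgeR adjusted p = 0.000492 and 0.000702).

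Markers of cell types and neighbouring regions differed between the same libraries. Oligodendrocyte markers were higher in 9 of 12 cases and lower in none, with summed levels of 19042 to 25074 CPM in CCI libraries, against 7462 to 14314 CPM in control libraries. Thalamic markers were lower in 9 of 14 and higher in 1, at 1820 to 2561 CPM in CCI libraries, against 5627 to 8400 CPM in control libraries. Hippocampal and cortical markers were higher in 6 of 11 and lower in 1, at 354 to 382 CPM in CCI libraries and 296 to 428 CPM in control libraries. Cux2, the gene called lower, had the highest means of that list, 161 CPM in CCI libraries and 259 CPM in control libraries. Neurod6, called higher, had 4.21, 3.47 and 57.6 CPM in CCI libraries, so 1 library set its rise. Astrocyte markers were higher in 4 and lower in 5 of 18, at 4498 to 5262 CPM in CCI libraries, against 9332 to 12052 CPM in control libraries. Most of that gap was Aldoc, with means of 1117 CPM in CCI libraries and 5333 CPM in control libraries, and the list's median log2 fold change was −0.05 (0.57 on log2(FPKM + 1)). Gfap, the classical marker of reactive astrocytes, rose by 1.2 ± 0.31 (edgeR adjusted p = 0.0115). Choroid plexus and ependymal markers were at 4466 to 5400 CPM in CCI libraries, while control replicate 6 had 1155 CPM and the other control libraries 6802 and 7771 CPM. Pan-neuronal markers were higher in 2 and lower in 2 of 12, at 4220 to 4514 CPM in CCI libraries, against 7943 to 10234 CPM in control libraries. Most of that gap was Snap25, with means of 1472 CPM in CCI libraries and 5553 CPM in control libraries, and the list's median was −0.21 (0.41 on log2(FPKM + 1)). Microglia markers were higher in 3 and lower in 1 of 12. Habenula markers were lower in 4 of 10 and higher in none, at 284 to 653 CPM in CCI libraries, against 643 to 1807 CPM in control libraries. Endothelial and mural markers were higher in 5 and lower in 2 of 12. Meningeal fibroblast markers were higher in 2 and lower in 1 of 7 tested, and red blood cell markers higher in 3 and lower in 2 of 7 tested. Of the markers in these lists, only Igf2, a meningeal fibroblast marker, was at 0 in all libraries. The part of these differences in the members' values was not tested.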

How the data were processed

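RNA from bulk paraventricular thalamus was measured in 3 CCI and 3 untreated control libraries, grouped by their labels. Per the labels' protocols, libraries were made from poly-A RNA with random priming and read on a NovaSeq machine. The submitters' processing notes name the GRCm39 build, StringTie 2.2.1, DESeq 1.38.3, HTSeq 0.9.1, HISAT2 2.1.0 and fastp 0.22.0, and no strand setting is given in the sources used here. The deposited table holds a read count and an FPKM value per gene and library, per the file headers. The deposited FPKM equals the count over Length and column total in 100% of values, within 0.1%. The deposited Length column, treated as a score, is the authors' gene length in bp, per the file headers.

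Genes were taken by a pattern on the symbol. The members, roles and lists were chosen with earlier results of these data known. The counts went into edgeR 4.0.16 under R 4.3.3 (TMM, filterByExpr, quasi-likelihood F-test, Benjamini-Hochberg over all 14259 tested genes, threshold 0.05). CPM are counts over TMM-scaled totals. Library totals ran between 7989139 and 15438268 counts, and the tested members' median standard error was 0.22 on the log2 scale. Alternatives used DESeq2 1.42.0, limma 3.58.1 with pseudocounts of 1 and 0.1 on FPKM, other filters and scalings, loess trends (span 0.3) on length and mean expression, thinning, each library left out and, added after the data were seen, total-count scaling.

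Values per library are given for the 3 tested members of each role with the smallest unadjusted p and for 32 members listed by name. Of each pathway list, the 2 genes with the smallest p were named, with Nfe2l2, Keap1, Mtf1, Slc7a11 and Gfap. Gene overlaps were read from the deposited coordinates. Shared sequence was read from GENCODE M21 transcripts by Ensembl identifier, in windows of 75 bases, since that annotation is on GRCm38. Promoter windows came from RefSeq on GRCm38.p6. The 11 members that failed the filter were Gpx5, Gpx6, Gsta1, Gsta2, Gsta5, Gstm3, Gstp3, Gstt4, Prdx6b, Txndc2 and Txndc8.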

Additional observations from a re-analysis of the deposited data

How the results depend on the processing

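Scaling and the trends on level and length changed the members' picture most. Members called higher numbered 15 under total-count scaling, 16 under limma on log2(FPKM + 1), 16 on log2(FPKM + 0.1), 15 with length and mean expression trends removed and 2 under the stricter filter, where low genes were not tested; leaving out 1 library gave 3 to 8. Members called lower numbered 7 under total-count scaling, 6 under limma on log2(FPKM + 1), 6 on log2(FPKM + 0.1) and 12 with both trends removed, and between 26 and 37 with 1 library left out. Their median was 0.014 under total-count scaling, 0.0082 on log2(FPKM + 1), 0.0068 on log2(FPKM + 0.1) and 0.056 with both trends removed. Relative to TMM, all tested genes shifted in the median by 0.59 under total-count scaling, which changes the scaling alone, and by 0.51 and 0.60 under limma on log2(FPKM + 1) and log2(FPKM + 0.1), which change the test too. Of all calls, 82.4% were higher under total-count scaling, 83.2% on log2(FPKM + 1) and 62.1% with both trends removed, against 51.6% with TMM. All tested genes called ranged from 5349 with both trends removed to 8975 without control replicate 5. Signs turned for 17 members under each of total-count scaling, log2(FPKM + 1) and log2(FPKM + 0.1), and for 22 with both trends removed. Only some of them are listed here. They are those that passed with TMM or under the alternative, of the 46 members chosen by smallest p in their role or listed by name. Under total-count scaling, log2(FPKM + 1) and log2(FPKM + 0.1) these were Sod1 (0.62, 0.60 and 0.60), Cat (0.14, 0.14 and 0.15), Gclm (0.18, 0.18 and 0.20), Prdx1 (0.57, 0.56 and 0.57), Prdx2 (0.043, 0.049 and 0.049), Prdx5 (0.041, 0.031 and 0.031) and Txn1 (0.10, 0.10 and 0.10). With both trends removed they were Mt1 (1.15), Sod1 (1.36), Cat (0.45), Gpx4 (0.64), Prdx1 (1.37), Prdx2 (0.74), Prdx5 (0.89), Txn1 (0.52), Txn2 (0.061), Gstm5 (0.40), Gstp1 (0.93), Hmox2 (0.18), Mgst1 (0.74), Glrx3 (0.053) and Mgst3 (0.11). The cause was not tested. Without each library in turn, Gsta3 and Mt3 stayed higher and 24 members stayed lower. No paired analysis was possible because the replicate numbers 1 to 3 and 4 to 6 are not shared between groups. Depth limits the scarce genes: Gpx2, Gsta3, Gstp2 and Mgst2 had under 100 counts over all libraries, and 3 members had none.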

Other observations

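Gpx6, a glutathione peroxidase known from olfactory tissue, did not reach the filter on low counts. With no filter its edgeR adjusted p was 0.014, from 4 counts over CCI libraries and 44 over control libraries.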
